A study of Mus musculus with 8 samples.

Results

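The mammalian circadian clock was examined through 10 of its genes, Clock, Per1, Per2, Per3, Cry1, Cry2, Nr1d1, Nr1d2, Dbp and Tef, which were taken by name from the 17362 genes of a single nucleus RNA-seq table of mouse pancreatic islets and read in beta, alpha and delta cells. Islets came from wild type (WT) mice and from whole-body Med14 S983A knock-in mice (mutant), in which a serine of Med14, the scaffold subunit of the Mediator coactivator complex, is replaced by alanine in all tissues. Hand-picked islets of each genotype were kept in RPMI culture without drug (CON), with forskolin (FSK), a direct activator of adenylyl cyclase, or with the GLP-1 receptor agonist Exendin-4 (Ex-4, 10 nM, 16 h). The Med14 S983A mice are listed as C57BL/6J, and the strain of the WT mice was not stated. Neither the ages of the animals nor the hour of day at which islets were taken could be read from the labels or methods. Each of the 6 conditions has a single pooled column per cell type and no replicate, so no test of a condition could be made, and a condition cannot be told apart from its islet preparation.

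The clock is a feedback loop of transcription. CLOCK (or its relative NPAS2) pairs with BMAL1, the product of Arntl, and binds E-box elements to drive the Period and Cryptochrome genes, whose proteins return to the nucleus and repress the pair. The same pair drives Nr1d1 and Nr1d2, which encode the nuclear receptors REV-ERB alpha and beta that repress Arntl, and the clock output genes Dbp and Tef, whose leucine zipper proteins bind D-box elements, among them those of Period genes. In islets the clock is known to time insulin secretion, and Per1 and Per2 are known to respond to cAMP in other tissues through CREB.

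The 8 sequenced sublibraries each carried nuclei of all 6 conditions, told apart by the first barcode, so they are not replicates of a condition. Whole counts were recovered from the deposited log values, and the columns summed to between 1915006 and 3094377 counts in beta cells, 269394 and 810127 in alpha cells and 362410 and 631433 in delta cells. Levels are given as counts per 10000 counts of the column (CP10K) with exact 95% Poisson intervals, and ratios with exact conditional 95% binomial intervals, and both cover counting error only. The number of nuclei behind a column is not in the table, so fewer expressing nuclei and less RNA per nucleus cannot be told apart. The columns answered to their labels: 8 of 9 beta cell markers were highest in beta cells in every condition, 6 of 6 alpha cell markers in alpha cells, and 3 or 4 of 4 delta cell markers in delta cells. The marker sum of alpha cells was not even across conditions, at 93.8, 125 and 103 CP10K in WT CON, WT FSK and mutant FSK alpha cells and between 38.9 and 41.2 CP10K in the other alpha columns. Of the non-endocrine markers, Ptprc, of leukocytes, stood at 0 in 4 of 6 beta, 5 of 6 alpha and 5 of 6 delta columns, and Pecam1, of endothelium, ran from 0 to 0.269 CP10K. Ribosomal RNA linked and mitochondrial genes took 1.91% to 4.64% of counts in WT CON, WT FSK and mutant FSK columns. They took 8.72% to 16.7% in both Ex-4 columns and mutant CON. A low column thus stood beside a high one in mutant FSK against mutant CON, WT Ex-4 against WT CON and mutant CON against WT CON. The same held for FSK against Ex-4 within each genotype. The part of these genes in the results was not tested. With them taken out of the totals all 38 calls of the 10 genes remained. The calls of the other clock genes below and the contrasts of FSK against Ex-4 were not recomputed this way.

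A gene was read in a cell type when it averaged at least 20 counts over the 6 conditions, and was called higher or lower at a ratio of 1.5 (0.58 on the log2 scale, with 0.5 counts added to each column). In beta cells 9 of the 10 genes passed this filter, all but Dbp, among 9332 genes tested. In delta cells 7 of 10 passed among 4452 genes, Cry1, Nr1d1 and Dbp falling short, and in alpha cells 5 of 10 among 5018, with Per3, Cry1, Nr1d1, Dbp and Tef falling short. The FSK, Ex-4 and mutant contrasts against WT CON all share the WT CON column, and both mutant treatments share the mutant CON column, so they are not independent of each other. Med14 itself was present throughout, at 0.384 to 0.753 CP10K in beta cells; the knock-in changes 1 residue, so its RNA level checks no label.

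Clock, the DNA-binding partner of BMAL1, varied little across conditions. In beta cells it stood at 2.30 CP10K (2.13 to 2.48) in WT CON, 2.34 in WT FSK, 2.26 in WT Ex-4, 1.89 in mutant CON, 1.98 in mutant FSK and 1.89 in mutant Ex-4. The highest column was 1.24-fold above the lowest, and no neighbours in order of level had intervals that lay apart. Each WT column nevertheless stood above each mutant column. The intervals of WT FSK (2.17 to 2.51) and mutant CON (1.70 to 2.10) lay apart. In alpha cells Clock ran from 1.53 to 1.80 CP10K and in delta cells from 1.19 to 1.69 CP10K, again with every neighbouring interval overlapping. Cry2, a repressor of CLOCK and BMAL1, varied as little in beta cells, at 1.5, 1.4, 1.34, 1.25, 1.28 and 1.31 CP10K in the same order of conditions, a spread of 1.21-fold. The widest spread belonged to Per3, whose highest beta cell column was 19.6-fold above its lowest, followed by Nr1d1 at 6.70-fold among genes that passed the filter. Per kilobase of gene body, which is the fitting measure for nuclear RNA, Cry2 (mean 0.044 CP10K per kb) and Per2 (0.0379) were the highest of the 10 genes in beta cells and Cry1 (0.00373) and Per3 (0.00571) the lowest, while Clock, whose gene spans 110 kb, stood at 0.0192.

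**Figure D1:**
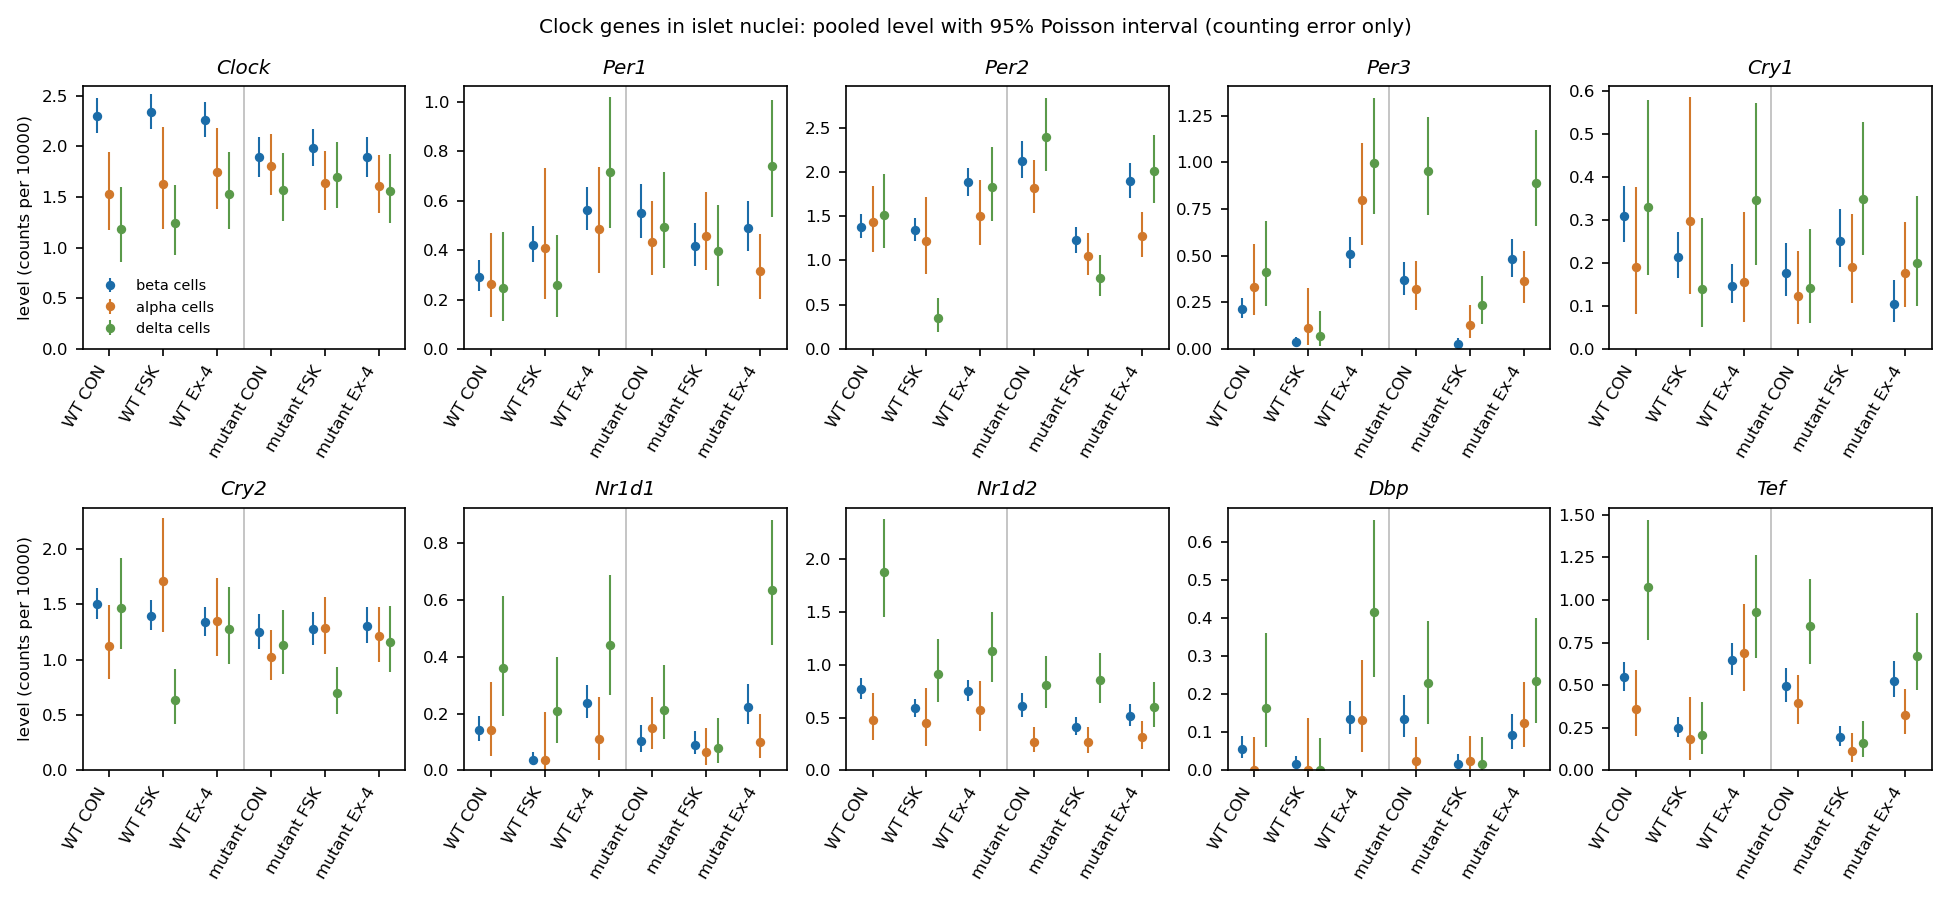
Level of each clock gene in counts per 10000 (linear axis from 0) in the 6 conditions, with beta cells in blue, alpha cells in orange and delta cells in green; points are single pooled columns and bars are 95% Poisson intervals that cover counting error only. Clock stays between 1.89 and 2.34 in beta cells, while Per3, Dbp and Tef are lowest in both FSK columns of beta cells and of delta cells.

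The first question was how the clock genes stood after forskolin, which raises cAMP without passing through the GLP-1 receptor. In WT beta cells 3 of the 9 genes read were lower than in WT CON and none was higher, at a background of 30.3% of all genes tested lower and 7.18% higher. The share lower is therefore close to the background. Of all genes called, 19.1% were higher, and 43.0% with the median of all genes set to 0. Per3, Nr1d1 and Tef were 6.07-fold, 4.02-fold and 2.20-fold lower, while the median gene of the table moved by -0.28 on the log2 scale. Clock, Per2 and Cry2 had ratios of 1.02, 0.976 and 0.928, each with an interval that includes 1.

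In mutant beta cells FSK gave 3 genes lower (Per2, Per3 and Tef) and none higher against mutant CON, beside 30.1% of all genes lower and 22.8% higher. Per3 fell furthest in both genotypes. Its levels were 0.216 CP10K in WT CON, 0.0355 in WT FSK, 0.510 in WT Ex-4, 0.369 in mutant CON, 0.0260 in mutant FSK and 0.480 in mutant Ex-4, from 65, 11, 152, 71, 6 and 92 counts. The FSK columns lay below the other 4, and their intervals overlapped none of those. The ratio to the matched control was 0.165 (0.0784 to 0.315) in WT and 0.0706 (0.0251 to 0.162) in the mutant, and 72 and 7 of the 9332 tested genes, Per3 included, were as low or lower.

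The Per3 gene spans chr4:151081373-151129140 on the minus strand (GRCm39, GENCODE M39). Per3 is a Period gene without which the mouse clock still runs, and D-box factors are known to act on it. Its RefSeq promoter window, 250 bases before to 50 after the start, held the D-box (TTATGTAA or TTACGTAA, either strand) at 205 and 158 bases before the start. Of 32851 promoter windows of the same length, 347 (1.06%) held a D-box and 8 (0.0244%) held 2 or more. The stretch with both is shown because it was the only D-box match among the windows of these genes; it lies at chr4:151129173-151129372 on the minus strand (GRCm39, equal to mm39), covers no annotated exon, and has both matches in capitals.
Per3 promoter: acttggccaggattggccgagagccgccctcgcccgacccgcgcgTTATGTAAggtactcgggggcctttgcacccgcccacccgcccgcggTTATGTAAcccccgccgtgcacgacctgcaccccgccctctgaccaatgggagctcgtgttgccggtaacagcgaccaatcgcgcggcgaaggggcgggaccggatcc
The match is a description of these letters and says nothing of which factor was bound.

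The D-box factors Tef (chr15:81686622-81711064, plus strand) and Dbp (chr7:45354512-45359627, plus strand) are themselves outputs of the clock. Tef stood at 0.548, 0.249, 0.647, 0.493, 0.195 and 0.527 CP10K in WT CON, WT FSK, WT Ex-4, mutant CON, mutant FSK and mutant Ex-4 beta cells. Both FSK columns were below the other 4 with intervals apart. The ratios to control were 0.454 (0.342 to 0.599) in WT and 0.396 (0.271 to 0.570) in the mutant. Dbp was too sparse for the filter, with 17, 5, 40, 26, 4 and 18 counts in that order. Its FSK levels, 0.0162 and 0.0174 CP10K, were again the lowest, at ratios of 0.286 (0.0826 to 0.809) and 0.129 (0.0326 to 0.371). Dbp lies over the opposite strand of Sphk2, which was also lower in both, at ratios of 0.229 and 0.431, and no source states the strand of counting, so reads of the pair cannot be told apart.

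E-boxes (CACGTG), the sites of CLOCK and BMAL1, were found in 2349 (7.15%) of all promoter windows, and in those of Per1, Cry1 and Tef among the 9 of the 10 genes with a window in the table; Per2 had no entry. The 4 stretches below show the E-box in capitals in its flanking sequence, 166 bases before the start in Per1, 60 in Cry1, and 127 and 138 at the 2 starts of Tef. They lie at chr11:68989597-68989626 (plus strand), chr10:85020961-85020990 (minus strand), chr15:81686735-81686764 and chr15:81695365-81695564 (plus strand) in GRCm39, where the first 3 fall in annotated exons and the last in an intron.
Per1: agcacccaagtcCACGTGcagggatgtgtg
Cry1: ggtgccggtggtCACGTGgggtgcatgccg
Tef, first start: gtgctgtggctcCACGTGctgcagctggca
Tef, second start: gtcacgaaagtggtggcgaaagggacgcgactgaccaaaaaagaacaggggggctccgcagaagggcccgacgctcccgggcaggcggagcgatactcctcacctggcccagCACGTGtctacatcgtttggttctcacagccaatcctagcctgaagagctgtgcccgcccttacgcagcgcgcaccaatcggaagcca
The CRE (TGACGTCA, the full site of CREB, in 1.79% of all windows) and the ROR element core (TAGGTCA, the site of REV-ERB and ROR receptors, in 2.61%) had no match in the 13 windows of these genes, which says only that these exact letters are absent from the windows.

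Nr1d1 and Per2 were each called with FSK in 1 genotype of beta cells. Nr1d1 (chr11:98658752-98666188, minus strand), the gene of REV-ERB alpha, had 0.143 CP10K in WT CON and 0.0355 in WT FSK, a ratio of 0.249 (0.116 to 0.491), whereas mutant CON and mutant FSK stood at 0.104 and 0.0912, a ratio of 0.878 (0.453 to 1.71) from 20 and 21 counts. The mutant interval includes 1, and the intervals of both ratios overlap. Nr1d1 shares its locus with Thra on the opposite strand, and Thra was lower in both genotypes, at ratios of 0.204 (0.115 to 0.341) and 0.256 (0.153 to 0.414). Per2 (chr1:91343700-91387069, minus strand), a core repressor of the loop, was 1.38 and 1.35 CP10K in WT CON and WT FSK but 2.13 and 1.23 in mutant CON and mutant FSK. The ratio was thus 0.976 (0.850 to 1.12) in WT and 0.577 (0.494 to 0.673) in the mutant, with intervals apart; the mutant and WT FSK levels were close, and it was the mutant control that was higher.

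The remaining genes moved less than 1.5-fold with FSK in beta cells. Nr1d2, the gene of REV-ERB beta, was 0.773 and 0.588 CP10K in WT CON and WT FSK and 0.613 and 0.412 in the mutant pair, with ratios of 0.760 (0.623 to 0.927) and 0.673 (0.508 to 0.889). Per1, the Period gene known as an early response gene, had ratios of 1.44 (1.09 to 1.91) in WT and 0.757 (0.568 to 1.01) in the mutant, with intervals apart. Cry1, the other Cryptochrome repressor, had ratios of 0.691 (0.496 to 0.957) and 1.43 (0.918 to 2.25). Over the 9 genes read the median log2 ratio was -0.39 in WT, beside -0.28 for all genes tested, and -0.40 in the mutant, beside -0.09. With the median of all genes set to 0, Per1 in WT (0.80) and Cry1 in the mutant (0.60) would count as higher, and with the trend on gene length removed Per1 in WT (1.08) and Nr1d1 in the mutant (0.78) would.

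**Figure D2:**
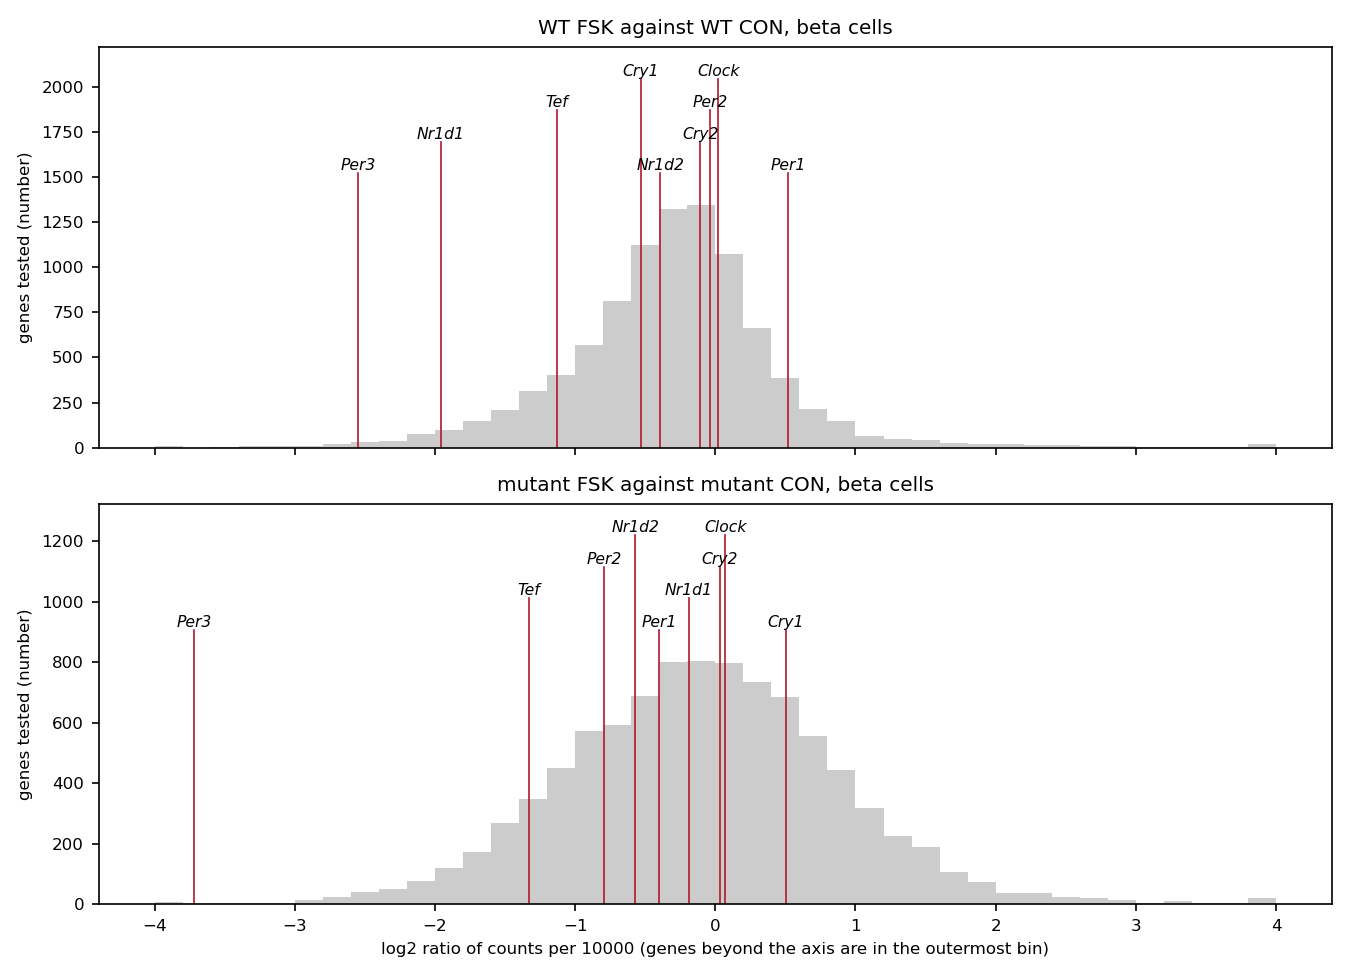
Number of genes tested in beta cells (grey bars, 0.2 wide) by log2 ratio of counts per 10000 for FSK against CON in WT (top) and mutant (bottom), with red lines at the 9 clock genes that passed the filter. Per3 sits at -2.55 and -3.72 in the left tail of both, Tef at -1.13 and -1.33, and Clock at 0.02 and 0.07 near the middle.

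In delta cells, the somatostatin cells of the islet, more of the clock was lower with FSK. In WT 5 of the 7 genes read were lower (Per2, Per3, Cry2, Nr1d2 and Tef) and none higher, at a background of 19.7% lower and 16.1% higher. In the mutant 4 of 7 were lower (Per2, Per3, Cry2 and Tef) and none higher, at 18% lower and 28.7% higher. Over the 7 genes read the median log2 ratio was -1.20 in WT beside -0.02 for all genes tested, and -0.69 in the mutant beside 0.16. Clock had ratios of 1.04 and 1.08 there.

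Tef stood at 1.08, 0.211, 0.926, 0.848, 0.158 and 0.670 CP10K in WT CON, WT FSK, WT Ex-4, mutant CON, mutant FSK and mutant Ex-4 delta cells. Both FSK columns lay below the other 4 with intervals apart, and the ratios were 0.196 (0.0833 to 0.411) and 0.187 (0.0843 to 0.374), which 29 and 17 of 4452 genes matched or passed. Per2 was also lowest in both FSK columns, with 1.52, 0.351, 1.83, 2.40, 0.808 and 2.01 CP10K. Its ratios were 0.231 (0.121 to 0.415) and 0.336 (0.239 to 0.467), and unlike in beta cells WT FSK was itself below WT CON. Per3 had 15, 3, 43, 54, 15 and 49 counts, and ratios of 0.170 (0.0315 to 0.599) and 0.249 (0.131 to 0.448). Cry2, even in beta cells, was 1.46 and 0.632 CP10K in the WT pair and 1.13 and 0.697 in the mutant pair, with ratios of 0.432 (0.261 to 0.699) and 0.617 (0.410 to 0.919), the latter falling short of 1.5-fold (-0.56 on the log2 scale) once the trend on gene length was removed. Nr1d2 was lower in WT FSK only by the call, at ratios of 0.486 (0.319 to 0.731) and 1.05 (0.697 to 1.60); its WT CON column, 1.88 CP10K, was the highest of the 18 columns for that gene. Of the genes below the filter, Dbp had 6 counts in WT CON and 0 in WT FSK. With WT FSK set at the floor of 3 counts this is 2.36-fold lower, a figure that leaves out counting error. In the mutant pair Dbp had 13 and 1 counts, a ratio of 0.0690 (0.00162 to 0.459). Cry1 had 12 and 6 counts in the WT pair and 8 and 22 in the mutant pair, and Nr1d1 13 and 9, and 12 and 5.

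Alpha cells, the glucagon cells, held the shallowest column of the 18, WT FSK. In WT 2 of 5 genes read were called higher (Per1 and Cry2) and none lower, at a background of 11.9% higher and 16.0% lower. Per1 had 11 counts in each column, with a ratio of 1.56 (0.612 to 3.96), and Cry2 a ratio of 1.52 (0.992 to 2.34), so that neither difference was detectable beyond counting error. In the mutant Per2 alone was called, lower at 1.81 and 1.06 CP10K with a ratio of 0.582 (0.439 to 0.767), beside 9.78% of genes lower and 21.7% higher. Below the filter, Tef had 15 and 5 counts in the WT pair and 32 and 9 in the mutant pair, with ratios of 0.519 (0.148 to 1.5) and 0.290 (0.122 to 0.622), and Per3 had 14 and 3, and 26 and 10 counts, with ratios of 0.334 (0.0615 to 1.19) and 0.396 (0.171 to 0.850). Both genes thus had ratios under 1 in the 2 genotypes, with intervals that leave out 1 in the mutant and include it in the shallower WT columns.

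**Figure D3:**
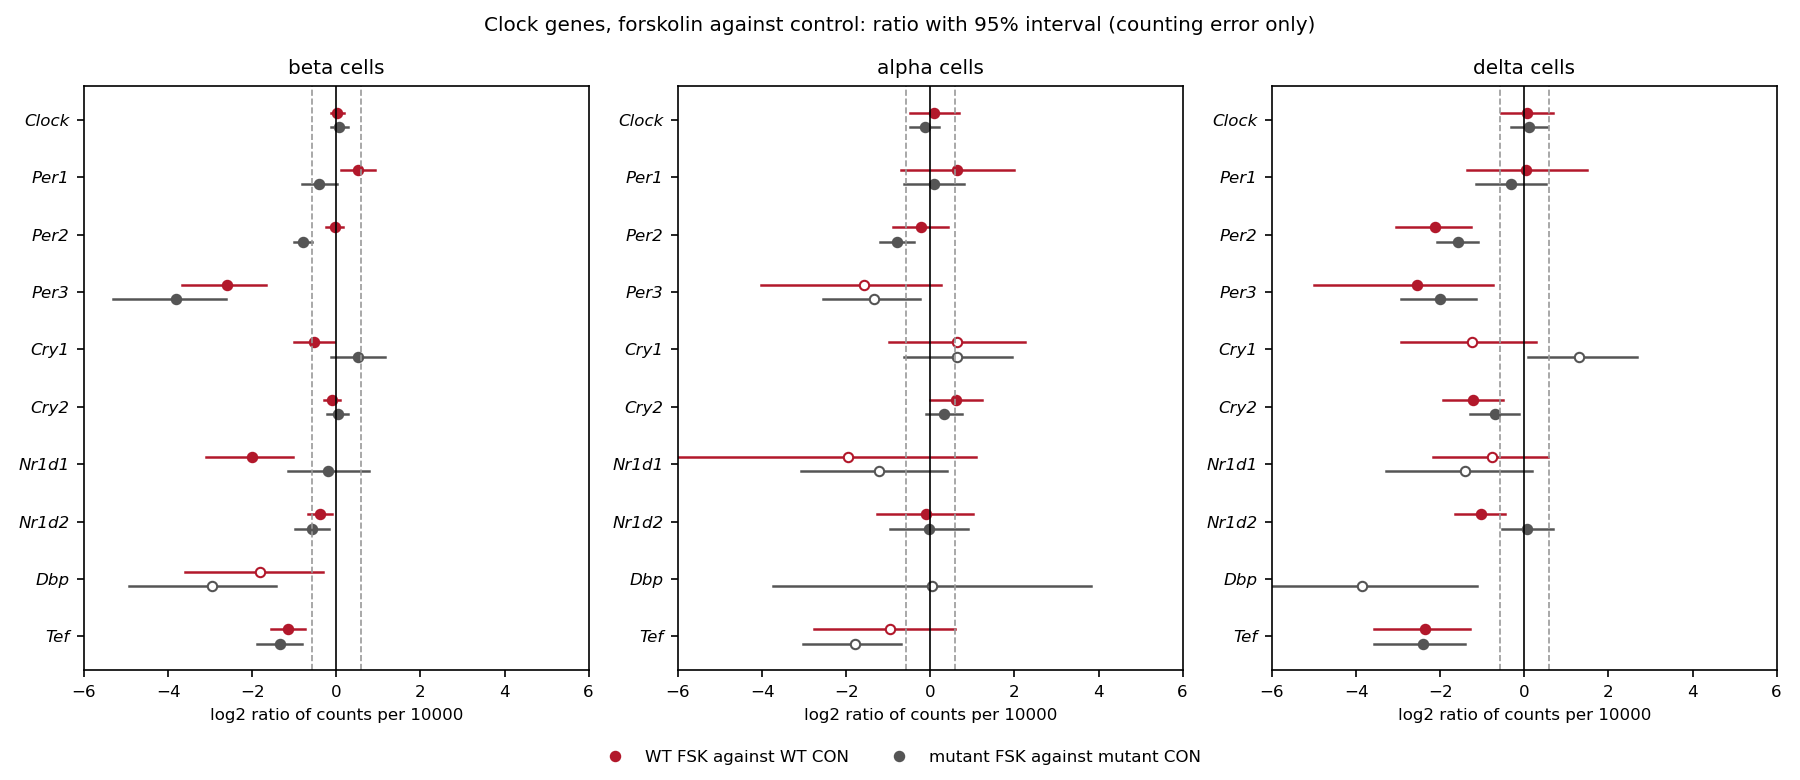
Ratio of each clock gene in FSK against CON on a log2 axis, WT in red and mutant in grey, in beta, alpha and delta cells; bars are 95% intervals (counting error only), dashed lines mark 1.5-fold, open points are genes below the count filter, and pairs with a count of 0 are not drawn. Per3 and Tef lie left of 0 in all 3 cell types, and Clock lies at 0.

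A count of one gene against Clock in the same column does not depend on the column total. Clock overlaps Tmem165 on the opposite strand, and Cry2 overlaps D930015M05Rik, so reads of either pair cannot be told apart. In beta cells Tmem165 had ratios to WT CON of 1.17 (0.920 to 1.49) in WT FSK, 0.603 (0.449 to 0.806) in WT Ex-4 and 0.485 (0.331 to 0.697) in mutant CON. Its ratios to mutant CON were 1.82 (1.24 to 2.71) in mutant FSK and 1.31 (0.849 to 2.03) in mutant Ex-4. Per 100 Clock counts in beta cells, Per3 had 9.38 (7.16 to 12.1), 1.52 (0.756 to 2.74), 22.6, 19.5, 1.31 (0.479 to 2.88) and 25.4 counts in WT CON, WT FSK, WT Ex-4, mutant CON, mutant FSK and mutant Ex-4. The FSK columns again lay apart from the rest on this measure. Tef had 23.8, 10.7, 28.7, 26.1, 9.85 and 27.9 per 100 Clock counts. Cry2 kept a narrow range of 59.3 to 69.1, whereas Per2 ran from 57.7 in WT FSK to 113 in mutant CON. Clock itself was 2.34 CP10K in WT FSK and 1.89 in mutant CON, which widens that range across genotypes. In delta cells Tef went from 90.7 to 17.0 per 100 Clock counts in the WT pair and from 53.9 to 9.35 in the mutant pair.

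Exendin-4 acts on the GLP-1 receptor. In WT beta cells 3 of 9 genes were higher with Ex-4 (Per1, Per3 and Nr1d1), at a background of 25.4%, and 1 was lower (Cry1), at 12.8%. Per3 was 0.216 CP10K in WT CON and 0.510 in WT Ex-4, a ratio of 2.36 (1.76 to 3.21), and 517 of 9332 genes were as high or higher. Per1 was 0.292 and 0.564 CP10K, a ratio of 1.93 (1.48 to 2.53) that became 0.43 on the log2 scale, no longer past the threshold, with the trend on gene length removed. Nr1d1 was 0.143 and 0.238 CP10K, a ratio of 1.67 (1.13 to 2.5) whose sign turned when that trend was removed (-0.16 on the log2 scale). Nr1d1 is, at 7.44 kb, the second shortest of the 10 genes. Cry1 was 0.309 and 0.148 CP10K, a ratio of 0.478 (0.326 to 0.691), and 245 of 9332 genes were as low or lower. Per2 was 1.36-fold higher (1.2 to 1.55), under the threshold, and Dbp, below the filter, had 17 and 40 counts, a ratio of 2.38 (1.32 to 4.47). Sphk2, on the opposite strand of Dbp, was also higher, at 2.08 (1.36 to 3.23), and Thra, on that of Nr1d1, had 1.42 (1.07 to 1.90). Reads of either pair cannot be told apart here either. Over the 9 genes read the median log2 ratio was 0.24, beside 0.12 for all genes tested.

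In mutant beta cells with Ex-4, Nr1d1 was called higher and Cry1 lower among the 9 genes read, in a comparison in which 3.33% of all genes tested were higher and 4.82% lower. Nr1d1 was 0.104 CP10K in mutant CON and 0.225 in mutant Ex-4, a ratio of 2.16 (1.24 to 3.88), and 41 of 9332 genes were as high or higher. Thra, on its opposite strand, had a ratio of 1.30 (0.952 to 1.78). Cry1 was 0.177 and 0.104 CP10K, from 34 and 20 counts, a ratio of 0.591 whose interval (0.323 to 1.06) includes 1. Per1, Per2 and Per3 had ratios of 0.892 (0.668 to 1.19), 0.893 (0.773 to 1.03) and 1.30 (0.946 to 1.80), and Clock had 1.00 (0.862 to 1.16). For Per1 and Per2 these intervals lay below those of the WT ratios; for Per3 they met at 1.76 to 1.80.

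In WT delta cells Per1 and Per3 were higher and Nr1d2 lower among 7 genes read, at a background of 21.0% higher and 18.4% lower. Per1 had 9 and 31 counts there, 0.248 and 0.718 CP10K, a ratio of 2.89 (1.34 to 6.90), and Per3 had 15 and 43 counts, a ratio of 2.41 (1.31 to 4.66). Nr1d2 had a ratio of 0.605 (0.410 to 0.886). In WT alpha cells Per1 was the single call among 5 genes, higher at 1.86 with an interval (0.864 to 4.24) that includes 1, beside 20.2% of genes higher and 22.2% lower, and with the trend on gene length removed it was no longer past 1.5-fold (0.28 on the log2 scale). Per3, below the filter in alpha cells, had 14 and 36 counts, a ratio of 2.39 (1.26 to 4.79). In the mutant none of the 7 genes read in delta cells was called, at 3.84% of genes higher and 5.3% lower, and none of the 5 in alpha cells, at 1.89% higher and 4.7% lower. Nr1d1, below the filter, had 12 and 35 counts in mutant CON and mutant Ex-4 delta cells, a ratio of 2.99 (1.52 to 6.32). Thra, on its opposite strand, had a ratio of 0.723 (0.459 to 1.13) there.

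The mutant was then compared with WT in the absence of drug. In mutant CON beta cells 3 of 9 genes were higher than in WT CON (Per1, Per2 and Per3), at a background of 23.8%, and 1 was lower (Cry1), at 22.9%. The ratios were 1.88 (1.41 to 2.53) for Per1, 1.54 (1.34 to 1.77) for Per2, 1.71 (1.2 to 2.43) for Per3 and 0.572 (0.374 to 0.856) for Cry1. All 4 intervals leave out 1, though Per1 was no longer past the threshold with the trend on gene length removed (0.50 on the log2 scale). Clock, Cry2 and Nr1d2 did not pass the threshold, at ratios of 0.822 (0.722 to 0.934), 0.829 (0.706 to 0.971) and 0.792 (0.629 to 0.993). Dbp, below the filter, had 17 and 26 counts, a ratio of 2.39 (1.25 to 4.70), and Nr1d1 and Tef had 0.728 (0.406 to 1.26) and 0.901 (0.692 to 1.17). On the opposite strands, Sphk2 at Dbp had 1.52 (0.912 to 2.53) and Thra at Nr1d1 had 1.36 (0.988 to 1.88). Over the 9 genes read the median log2 ratio was -0.27, beside -0.02 for all genes tested.

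In delta cells the same 3 Period genes were higher in mutant CON among 7 read, at a background of 19.7%, and Nr1d2 was lower, at 27.4%. Per3 rose from 0.414 to 0.953 CP10K, a ratio of 2.30 (1.28 to 4.40), and Per2 from 1.52 to 2.40, a ratio of 1.58 (1.15 to 2.21). Per1 had 9 and 28 counts and a ratio of 1.99 (0.913 to 4.80), and with the trend on gene length removed neither Per1 (0.24) nor Per2 (0.50 on the log2 scale) was past the threshold. Nr1d2 fell from 1.88 to 0.812 CP10K, a ratio of 0.433 (0.291 to 0.639). In alpha cells Per1 was called higher and Nr1d2 lower among 5 genes, at 19.5% and 27.8% of all genes, but the intervals, 0.818 to 3.59 and 0.296 to 1.10, both include 1.

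**Figure D4:**
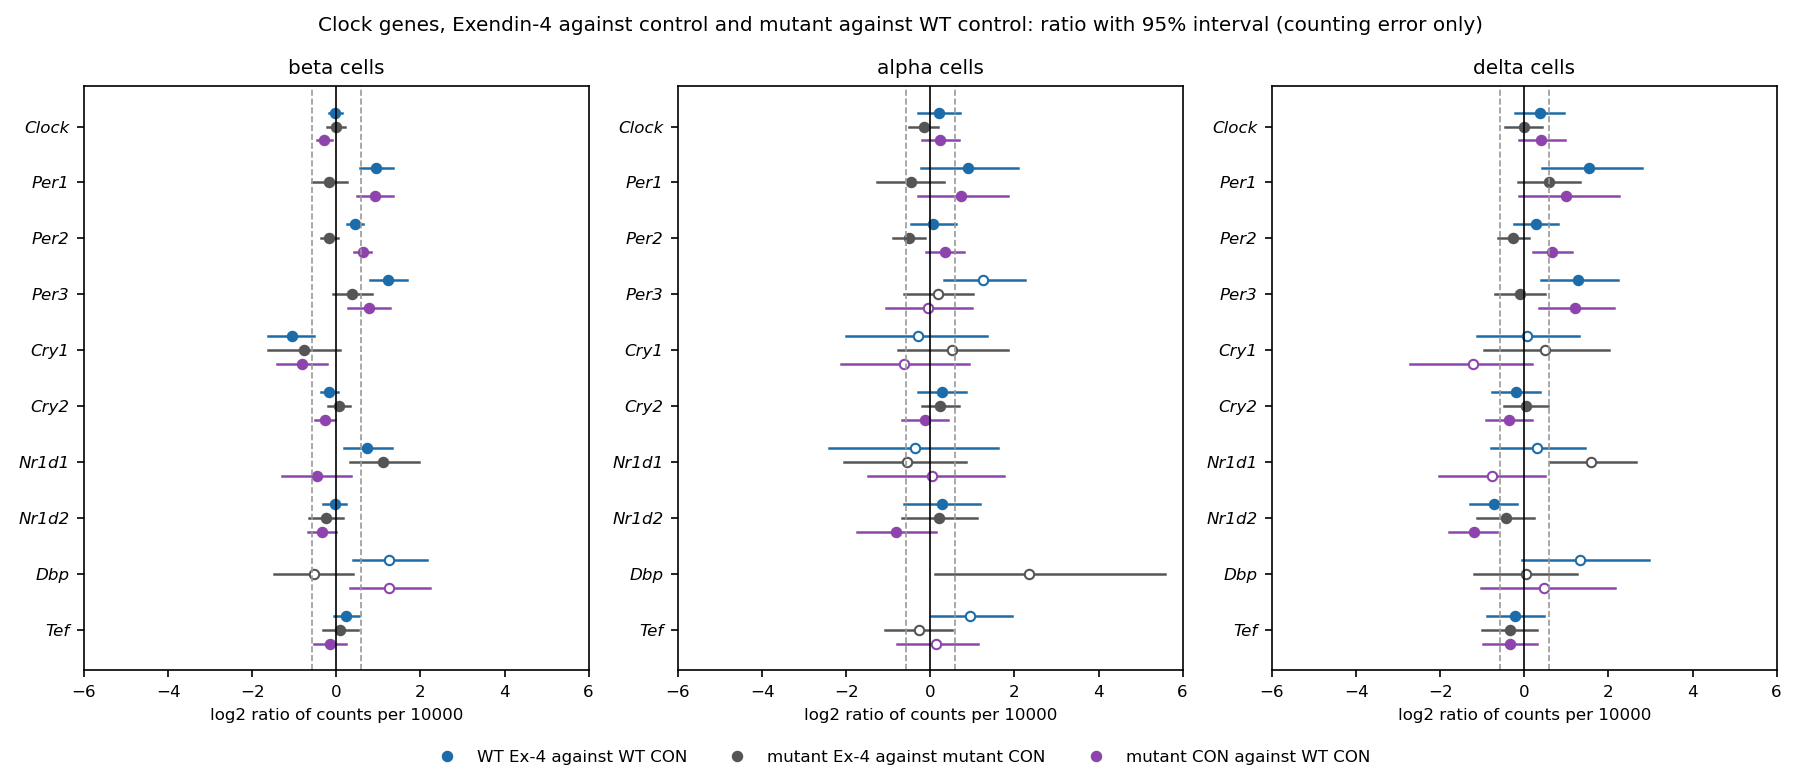
Ratio of each clock gene on a log2 axis for WT Ex-4 against WT CON (blue), mutant Ex-4 against mutant CON (grey) and mutant CON against WT CON (purple) in the 3 cell types; bars are 95% intervals (counting error only), dashed lines mark 1.5-fold, open points are genes below the count filter and pairs with a count of 0 are not drawn. Per1 and Per3 lie right of the upper dashed line in WT Ex-4 beta and delta cells, while in mutant Ex-4 beta cells both lie between the lines.

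The genotypes were also set side by side under the same drug, and the drugs within a genotype, in contrasts added after the values were seen. With Ex-4, mutant beta cells had ratios to WT of 0.871 (0.669 to 1.13) for Per1, 1.01 (0.883 to 1.15) for Per2, 0.942 (0.719 to 1.23) for Per3 and 0.708 (0.395 to 1.23) for Cry1. With FSK the ratios were 0.992 (0.754 to 1.30), 0.912 (0.781 to 1.06), 0.733 (0.223 to 2.16) and 1.18 (0.815 to 1.71). Each of these intervals includes 1. Nr1d2 had mutant to WT ratios of 0.688 (0.537 to 0.875) with Ex-4 and 0.701 (0.541 to 0.904) with FSK, and Nr1d1 had 2.56 (1.18 to 5.89) with FSK. Both drugs raise cAMP in beta cells. Per3 was 14.3-fold lower (7.79 to 29.3) in WT FSK than in WT Ex-4 and 18.4-fold lower (8.16 to 51.6) in the mutant. Tef was 2.60-fold (1.99 to 3.43) and 2.70-fold (1.88 to 3.93) lower by the same comparison. In both genotypes this sets a column with a low share of ribosomal RNA linked and mitochondrial counts beside a high one. The part of that share in these folds was not tested, and no background of all genes is given for them. By the paper's account both drugs were read at 16 h. No source used here states the FSK dose in islets, so the drugs cannot be matched by strength.

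The other genes of the clock were read from a list of 19, of which 14 passed the filter in beta cells and 10 each in alpha and delta cells. In beta cells FSK gave 7 lower and 0 higher in WT, beside 30.3% and 7.18% of all genes, and 4 lower and 4 higher in the mutant, beside 30.1% and 22.8%. Thra, Csnk1e (casein kinase 1 epsilon, which phosphorylates PER proteins) and Bhlhe41 (a repressor of CLOCK and BMAL1) were among those lower in both genotypes. Csnk1e had ratios of 0.380 (0.199 to 0.692) and 0.491 (0.293 to 0.806). Hlf, the third D-box factor, was lower in WT at 0.241 (0.142 to 0.391) and not called in the mutant.

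Arntl and Npas2, whose proteins belong to the activating side of the loop, were higher in mutant FSK than in mutant CON. Arntl had 1.46 CP10K in WT CON, 1.25 in WT FSK, 0.912 in WT Ex-4, 0.821 in mutant CON, 1.42 in mutant FSK and 0.789 in mutant Ex-4 beta cells, and Npas2 had 0.664, 0.882, 0.359, 0.343, 0.916 and 0.261 CP10K. Both were low with Ex-4 in either genotype and in mutant CON, the 3 columns with a high share of ribosomal RNA linked and mitochondrial counts, whose part in this was not tested. Mutant FSK against mutant CON gave 1.72 (1.42 to 2.10) for Arntl and 2.67 (2.02 to 3.58) for Npas2. Arntl2 at 1.67 (0.94 to 3.07) and Fbxw11 at 2.30 (1.85 to 2.89) were the other genes called higher there. WT Ex-4 gave 5 lower and 2 higher of 14, beside 12.8% and 25.4% of all genes, and mutant CON against the same WT CON column 6 lower and 1 higher, beside 22.9% and 23.8%. In these contrasts Arntl had ratios of 0.623 (0.534 to 0.727) and 0.561 (0.464 to 0.674). In mutant Ex-4 none of the 14 was called, beside 4.82% of all genes lower and 3.33% higher. In delta cells Npas2 was 2.24-fold (1.61 to 3.16) higher with FSK in WT and 5.26-fold (3.56 to 8.03) higher in the mutant, while 5 and 3 of 10 genes were lower, beside 19.7% and 18% of all genes. In alpha cells 4 and 2 of 10 were lower with FSK, beside 16.0% and 9.78%, and 2 and 4 higher, beside 11.9% and 21.7%. Rorb, one of those called there, is listed at 0 in all cell types of mutant CON and of both Ex-4 conditions, and no fold is given for it.

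**Figure D5:**
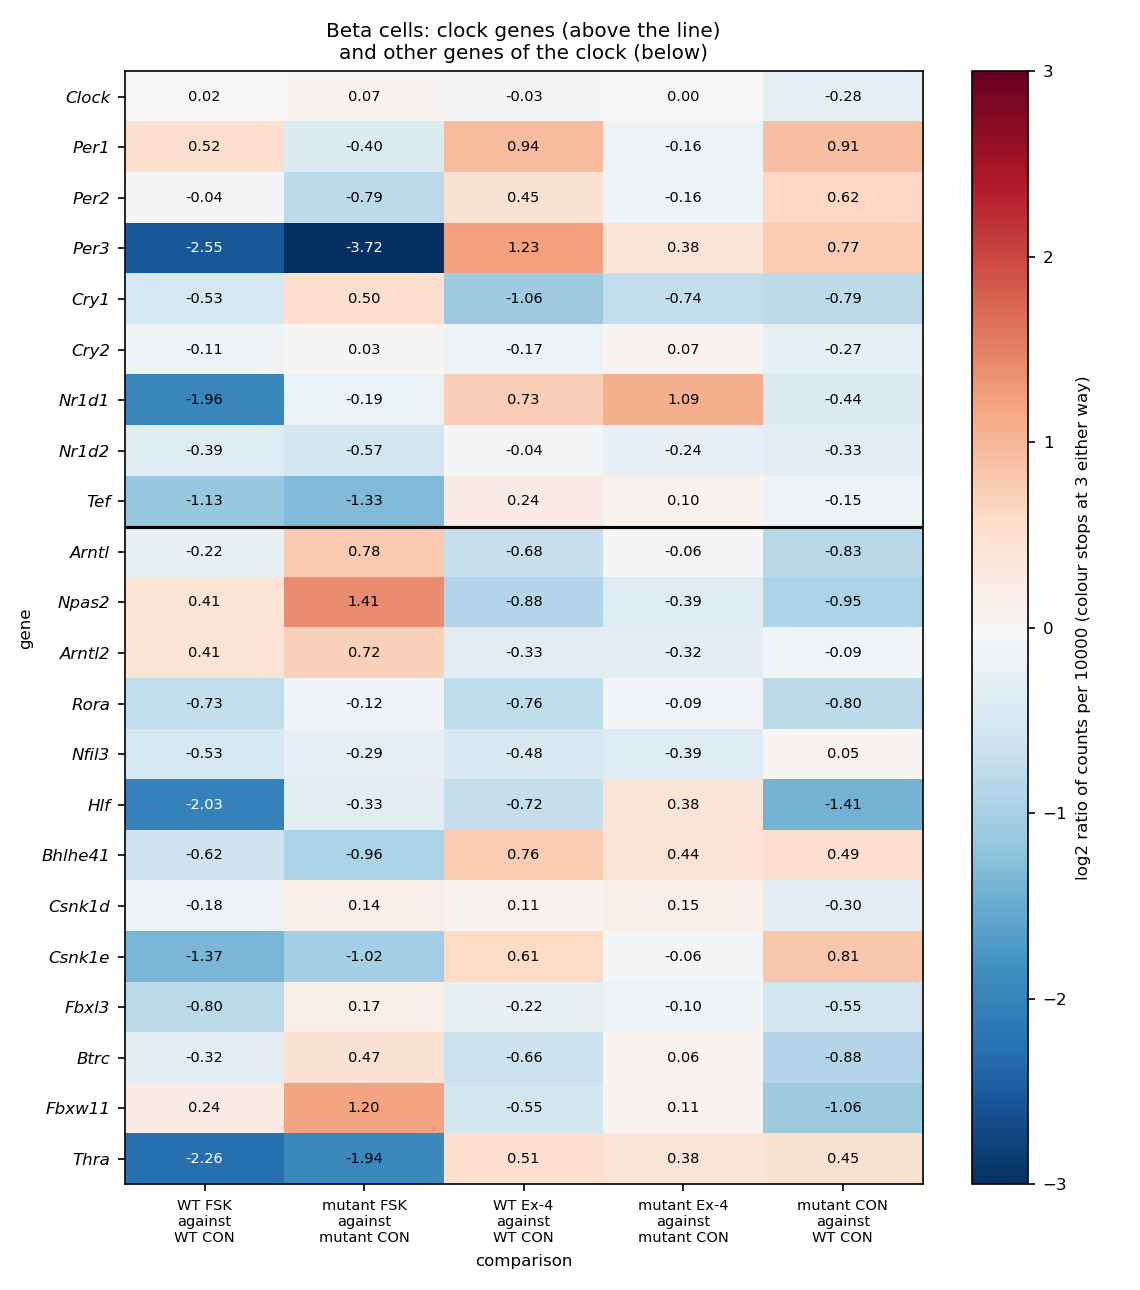
Log2 ratio of counts per 10000 (with 0.5 counts added to each column) in beta cells for the 9 clock genes that passed the filter (above the black line) and other genes of the clock (below) in 5 comparisons; red is higher, blue lower, and the colour stops at 3 in either direction. The lowest values are Per3 at -3.72 and -2.55 in the FSK columns, and the mutant Ex-4 column is the palest.

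In the other cell types of the table the clock genes were too sparse to follow singly. Summed over these 6 types, which include the endocrine PP cells, the columns held 200058 to 444918 counts. The mix of types was not even across conditions. Neurons gave 8995 counts in WT CON and 51758 in WT Ex-4, and endothelial cells 122420 in WT CON and 62177 in WT FSK. The part of this mix in the ratios below was not tested. Per3 had 17 counts in mutant CON and 3 in mutant FSK, a ratio of 0.215 (0.0404 to 0.744), and Per2 37 and 14, a ratio of 0.461 (0.230 to 0.874). In the WT pair Per3 had 3 and 2 counts and Per2 15 and 11, so no difference of either gene was detectable at this depth. Cry1 had 11 counts in WT CON and 2 in WT FSK, a ratio of 0.218 (0.0235 to 0.9995). With Ex-4, Per3 had 29 counts beside 17 in mutant CON, a ratio of 1.94 (1.03 to 3.76). Nr1d1 had 7 counts in WT Ex-4 and 0 in WT CON. Clock had 50 and 31 counts in the WT pair and 71 and 56 in the mutant pair, with intervals that include 1.

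Likeness of pattern was described by Pearson's r over the 18 columns, each gene centred within its cell type, and no p is given because the columns share libraries, conditions and composition. Among the 4060 genes with at least 20 mean counts in all 3 cell types, the genes most like Per2 were Hip1r (r = 0.93), Myo18a (0.93) and Kif1b (0.92), those most like Cry2 were Denn2b (0.94), Scnn1b (0.90) and Mcf2l (0.90), and those most like Per1 were Eef1a1 (0.90), Srp68 (0.89) and Taf1d (0.89). Nr1d2 was most like Dcaf6 (0.85), Cdh1 (0.81) and Map7 (0.79), and Clock most like Anks1 (0.74), Rab3gap2 (0.73) and Mgrn1 (0.72). With the minimum lowered to 10 counts after the values were seen, which lets in Per3, Cry1 and Tef among 6315 genes, Per3 was most like Kdm4b (0.96), Ylpm1 (0.95) and BC051142 (0.95), Tef most like Tmem63a (0.97), Gm34759 (0.96) and Insrr (0.95), and Cry1 most like Fhip1a (0.87), Otud7b (0.84) and Pafah1b1 (0.84). Within the clock, Per3 and Tef had r = 0.82, and Per2 had r = 0.75 with each of them, whereas Clock had r between -0.25 and 0.46 with the other members. Tef ranked 401 by likeness to Per3.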

How the data were processed

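Nuclei from about 100 hand-picked islets per condition were sorted by DAPI and barcoded combinatorially by the authors, who aligned reads to mm39 with split-pipe, filtered and integrated nuclei in Seurat and assigned cell types. The deposited values are on a natural log scale, ln(1 + 10000 × count / column total), for 54 pooled columns (6 conditions, 9 cell types), as the authors made them; 18 columns were used. Whole counts were recovered (100% of values within 0.001 of whole). The strand of counting and whether counts were corrected were not stated.

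Log2 ratios of CP10K took 0.5 added counts per column. Intervals were exact (95%), the floor was 3 counts. Alternatives were a difference of log2(CP10K + 1), a 2-fold threshold, a mean of at least 50 counts, no filter, the median set to 0, totals that omit 14 genes (ribosomal RNA linked or mitochondrial), and a lowess trend on gene length removed (span 0.3; GENCODE M39, 97.6% of tested beta genes with a length). The ratio step was tested on simulated counts. Named genes were Med14, the 10 members, 19 other clock genes and the 3 genes most like each member by Pearson's r. The values of 1 of the other clock genes are not reported here, though the gene stays in the counts. Members, lists and motifs were chosen with earlier results of these data known. Promoters were RefSeq windows (GRCm38.p6, 13 windows for 9 members), each found once, base for base, in GRCm39. Every library holds all 6 conditions and so has no group of its own. Ratios and intervals used scipy 1.17.1 and pandas 2.3.3, the trend statsmodels 0.14.6, and plots matplotlib 3.10.9, under Python 3.11.15.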

Additional observations from a re-analysis of the deposited data

Results flagged for a closer look

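Cry2 was called in opposite directions by the same contrast in 2 cell types. For WT FSK against WT CON its ratio was 1.52 (0.992 to 2.34, from 46 and 47 counts) in alpha cells and 0.432 (0.261 to 0.699, from 27 and 53 counts) in delta cells. The difference between the cell types was not tested, since each has 1 pooled column per condition.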

How the results depend on the processing

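No paired analysis was possible because each condition and cell type has 1 pooled column and no test was run. Of 38 called values, 38 stayed past 1.5-fold with the median of all genes set to 0 and 38 with totals that leave out ribosomal RNA linked and mitochondrial genes, 30 with the trend on gene length removed and 8 as a difference of log2(CP10K + 1), a scale that understates changes of genes this low. The counts below are of members past the threshold, higher and lower together. As a difference of log2(CP10K + 1), 0 were past it in each of the 5 beta comparisons, 0 in alpha cells for WT FSK, mutant FSK, WT Ex-4 and mutant CON, and in delta cells 0 for WT Ex-4 and 1 for mutant CON. At 2-fold, beta cells had 2 for WT Ex-4, 1 for mutant Ex-4 and 0 for mutant CON, alpha cells 0 for WT FSK, mutant FSK, WT Ex-4 and mutant CON, and delta cells 2 for mutant CON. At a mean of 50 counts, beta cells had 1 for mutant Ex-4, alpha cells 1 for WT FSK and 0 for WT Ex-4 and mutant CON, and delta cells 2 for WT FSK, 2 for mutant FSK, 0 for WT Ex-4 and 1 for mutant CON, since fewer members are read. With no filter, alpha cells had 7, 5, 4, 1 and 4 for WT FSK, mutant FSK, WT Ex-4, mutant Ex-4 and mutant CON, and delta cells 8 for WT FSK, 7 for mutant FSK and 1 for mutant Ex-4, since more are read. With the length trend removed, WT Ex-4 had 2 in beta, 0 in alpha and 5 in delta cells, and mutant Ex-4 had 1 in delta cells; the cause was not tested. Mutant Ex-4 in delta cells also had 1 with the median set to 0 and 1 with the reduced totals, in both cases Per1. The sign of Nr1d1 in WT Ex-4 beta cells turned with the length trend removed (-0.16 against 0.73 on the log2 scale). Among all genes called, the share higher moved with the median set to 0 from 19.1% to 43.0% for WT FSK and from 66.5% to 52.9% for WT Ex-4 in beta cells, and with the reduced totals from 50.9% to 61.0% for mutant CON and from 40.9% to 52.8% for mutant Ex-4 in beta cells. With the length trend removed it was 49.8% for WT FSK and 48.7% for WT Ex-4 in beta cells. As a difference of log2(CP10K + 1) it was 67.7% and 30.2% for the same contrasts, the reverse of the main direction. With the median set to 0 it moved for mutant FSK from 68.9% to 55.7% in alpha and from 61.4% to 48.4% in delta cells. Depth limits alpha and delta cells most, where a floor of 3 counts is a larger level than in beta cells.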
